A study of Mus musculus with 16 samples.

Results

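The cells described here carried 1 of 3 endothelial labels in single-cell transcriptomes of chimeric mouse embryos collected on embryonic days E7.5 to E9.5. These labels were Embryo proper endothelium, Venous endothelium and YS endothelium, where YS stands for yolk sac. Members were all cells with these deposited labels that passed the RNA quality filter of the authors and were not called doublets. This gave 741 cells, of which 35 came from the tdTomato-negative sort but held a tdTomato UMI (unique molecular identifier, a counted RNA molecule) and were left out. The remaining 706 of 37841 analysed cells comprised 178 Embryo proper, 307 Venous and 221 YS endothelial cells. Endothelial cells of the allantois, with a label of their own, and the 80 cells labelled Endocardium were not counted as members.

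The embryos were made by injecting Stat3 null embryonic stem cells of CD1 background, marked with tdTomato, into wild-type (WT) host blastocysts of the same CD1 stock, and every embryo analysed was therefore a chimera. Flow sorting separated the dissociated cells by tdTomato into a Stat3 null fraction and a WT host fraction before 10x library preparation. There were 2 libraries per genotype at E7.5, 2 at E8.5 and 4 at E9.5. The null cells carried the deletion in all lineages from the start, and the marked line was grown from picked colonies. The null cells had passed through stem cell culture and the host cells had not, so culture history and genotype cannot be told apart. At E7.5 and E8.5 several embryos were pooled. The study used fewer E9.5 embryos than there are E9.5 libraries per genotype, so some libraries of a genotype shared an embryo. The p-values below therefore measure the spread between libraries, which may be partly technical. Each pool or embryo gave a null and a WT fraction, but the library names in the cell table could not be matched to the replicate numbers of the labels. Library letters (A to D) are names only and pair nothing.

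Endothelial cells line blood vessels. They arise from mesoderm that expresses Kdr, the main VEGF receptor, under the transcription factor Etv2, and then acquire the junction proteins VE-cadherin (Cdh5) and Pecam1 as vessels form. Yolk sac vessels form first as a plexus beside the earliest blood islands, while intraembryonic vessels become arteries and veins under Notch signalling, blood flow and the venous factor Nr2f2. STAT3 is a transcription factor activated downstream of gp130 and other cytokine receptors.

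Each library held 4 to 141 endothelial cells, with medians of 17251 to 70028 UMIs per cell, and each analysed cell had at least 10003 UMIs. E9.5 WT C and E9.5 WT D shared 375 cell barcodes, against at most 12 for any other pair of libraries, and 4 endothelial cells of WT C and 5 of WT D carried a shared barcode. No barcode was carried by 2 endothelial cells, and in 12 of the 375 pairs (3.2%) both cells had the same label. The tests of null against WT at E9.5, the cell shares, the library-level values and the stage tests of Venous and YS WT cells were repeated without both libraries. The stage test of Embryo proper WT cells and the tests of stage by genotype were not. The authors' doublet calls carried no cell type label, so none could enter the endothelial labels. Levels are given as CPM, which scales counts to a common total, of the UMIs summed over the cells of a label in a library. A library entered a gene test if it held more than 15 cells of a label. At least 2 libraries per group met this minimum in Venous endothelium at E9.5, in the stage comparison of Venous WT cells and when the 3 labels were summed. The other gene tests used libraries of more than 4 cells, a minimum chosen after the cell numbers were seen. Genes were called at an adjusted p under 0.05 (edgeR quasi-likelihood test) with an absolute log2 fold change over 1.

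The 3 labels differed in how much of the endothelial program their cells contained. Cdh5 was at 22.9 CPM in cells labelled Embryo proper endothelium, 262 CPM in Venous endothelium and 394 CPM in YS endothelium, over all stages and genotypes. Pecam1 followed the same order at 15.4, 127 and 172 CPM. Kdr was present throughout at 408, 367 and 538 CPM. Etv2, which acts at the angioblast step, ran the opposite way at 775, 66.0 and 3.68 CPM. Tal1, needed for blood and endothelial specification, was at 207, 49.6 and 31.2 CPM. The cells labelled Embryo proper endothelium were therefore high in Etv2 and Kdr and low in Cdh5 and Pecam1, against the marker set of the label, and the deposited name is used below only as a label. This profile was not particular to them. Cells labelled Haematoendothelial progenitors had Etv2 at 301, Kdr at 266, Cdh5 at 31.9 and Pecam1 at 22.9 CPM. In Allantois endothelium the same genes were at 458, 448, 67.1 and 59.7 CPM. Because the labels had been assigned from expression, these differences between labels are descriptions without a test.

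In the cells labelled Embryo proper endothelium, a Cdh5 UMI was found in 10 of 44 cells (22.7%) at E7.5, 27 of 94 (28.7%) at E8.5 and 19 of 40 (47.5%) at E9.5. After every cell was thinned to 10000 UMIs these shares were 9.09%, 16% and 20%. In Venous endothelium the counts were 16 of 16, 102 of 105 and 184 of 186 cells, and in YS endothelium every cell had a Cdh5 UMI at E8.5 (128 of 128) and E9.5 (93 of 93). For comparison, free RNA or other background gave a Cdh5 UMI in 3 of 757 Ectoderm cells at E7.5 (0.396%) and in 2 of 321 spinal cord progenitors at E8.5 (0.623%), and in none of either after thinning. At E9.5 it was found in 0 of 173 spinal cord progenitors (95% Wilson upper bound 2.17%). An Etv2 UMI was present in 44 of 44, 89 of 94 and 29 of 40 cells labelled Embryo proper endothelium, against 21.9%, 13.7% and 10.4% of the Ectoderm or spinal cord progenitor cells of the same stages. After thinning the shares were 97.7%, 87.2% and 62.5%, against 5.81%, 4.98% and 4.05%. In YS endothelium the thinned Etv2 shares were 3.13% and 4.30%, at or near that background. Median depths of the 3 labels ranged from 20488 to 45958 UMIs per cell over the stages.

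Emcn, the sialomucin endomucin of venous and capillary endothelium, was at 81.2, 349 and 306 CPM in Embryo proper, Venous and YS cells. Cd34 was at 46.9, 351 and 315 CPM, and the tight-junction gene Cldn5 at 189, 494 and 507 CPM. Receptors that maintain formed vessels were lowest in the Embryo proper label, with Tek at 33.3, 87.2 and 179 CPM and Tie1 at 6.66, 70.6 and 115 CPM. Among arterial genes, Gja5, a gap-junction gene, had no UMI in Venous endothelium and was at 25 CPM in YS endothelium. The Notch ligand Dll4 was at 3.90, 9.52 and 28.3 CPM in the same order of labels. The ephrin gene Efnb2 was at 33.6, 35.7 and 66.1 CPM, and Sox17 at 56.2, 84.9 and 84.7 CPM. Hey1, Hey2 and Cxcr4 went the other way and were highest in the Embryo proper label. Hey1 was at 17.5 CPM there and 12.2 CPM in YS endothelium, Hey2 at 3.25 and 1.36 CPM, and Cxcr4 at 9.26 and 2.13 CPM. Runx1, required for haematopoiesis from endothelium, stayed at 5.95 to 7.17 CPM in the 3 labels, against 145 CPM in the cells labelled Haematoendothelial progenitors.

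Several scavenger receptor genes were highest in YS endothelium, here summed over stages. The hyaluronan receptor Lyve1 was at 1159 CPM in YS endothelium, against 12.8 CPM in Embryo proper and 13.6 CPM in Venous cells. Stab2, another hyaluronan receptor, was at 292 CPM against 4.71 and 4.26 CPM. The mannose receptor Mrc1 was at 208 CPM against 4.87 and 5.06 CPM. Stab1, the relative of Stab2, was less distinct, at 154 CPM against 20.5 and 82.1 CPM. The transcription factor Maf was at 350 CPM against 39.1 and 21.1 CPM. At E9.5 Stab2, Mrc1 and Maf were low in the 53 of 93 YS cells without a Lyve1 UMI, as given below. The flow-induced factor Klf2 was at 14.1 CPM in Embryo proper, 113 CPM in Venous and 247 CPM in YS endothelium, and 234 CPM in Endocardium.

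**Figure D1:**
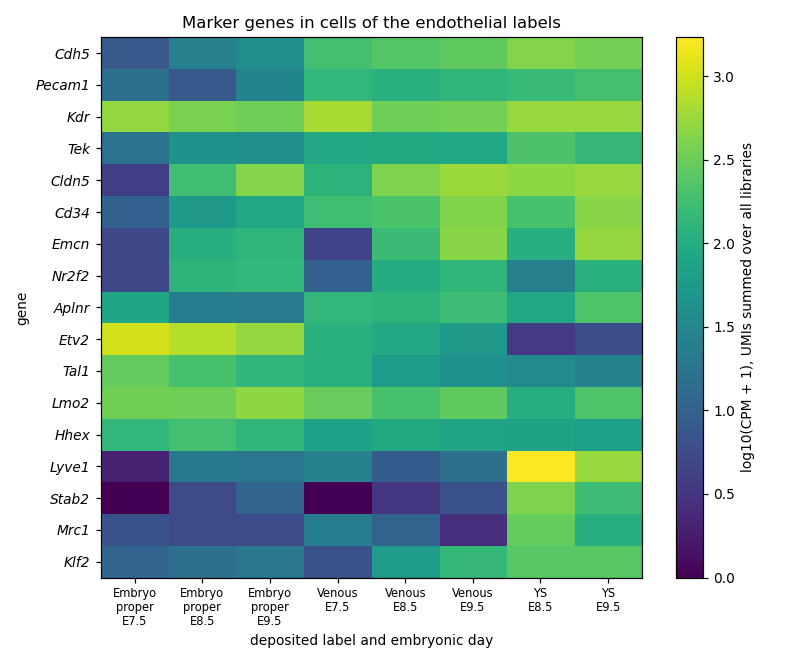
Levels of 17 endothelial and haematovascular genes in the 3 labels at each stage; rows are genes, columns are label and stage, and colour is log10(CPM + 1) of UMIs summed over all cells of the column. Etv2 is brightest in the Embryo proper columns, and Lyve1 and Stab2 in the YS columns, with both lower at E9.5 than at E8.5.

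No difference between WT and null fractions in the share of endothelial cells passed the test at any stage. No YS endothelium was labelled at E7.5, a count of 0. At E8.5, YS endothelium made up 1.43% ± 0.415 of null cells (SD, n = 2) and 0.871% ± 0.714 of WT cells (n = 2). At E9.5 it made up 0.469% ± 0.218 of null and 0.409% ± 0.194 of WT cells (n = 4 each). The values overlapped between genotypes at both stages. In an edgeR quasi-likelihood fit of cell counts over the labels of a stage, the log2 fold change (null over WT) was 0.74 at E8.5, with a 95% interval of -1.01 to 2.49 (adjusted p = 0.989), and 0.12 at E9.5, with an interval of -0.90 to 1.14 (adjusted p = 0.996).

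Venous endothelium made up 0.945% ± 0.472 of null and 0.799% ± 0.205 of WT cells at E8.5 (n = 2 each), and the log2 fold change was 0.29 with an interval of -0.98 to 1.56. At E9.5 the shares were 0.955% ± 0.348 and 0.840% ± 0.393 (n = 4 each), and the log2 fold change was 0.19 with an interval of -0.74 to 1.13. For the cells labelled Embryo proper endothelium, the log2 fold changes were 0.30 at E7.5 (-1.59 to 2.19), -0.20 at E8.5 (-1.37 to 0.97) and 0.14 at E9.5 (-1.14 to 1.42). None of these differences passed the test, with adjusted p of 0.980 at E7.5, 0.989 at E8.5 and 0.996 at E9.5 (edgeR). Over all labels tested, 11.1% of 27 passed at E7.5, 0 of 68 at E8.5 and 1.41% of 71 at E9.5. Differences in share within these intervals were not detectable with these libraries. The null-over-WT difference at E9.5 minus that at E8.5 was -0.64 in log2 units for YS endothelium (SE 0.84), -0.17 for Venous (SE 0.76) and 0.34 for Embryo proper cells (SE 0.88), none of which passed the test (adjusted p = 1.00, edgeR; 1.3% of 77 labels passed). Leaving out WT C and WT D, the log2 fold changes at E9.5 were 0.43, 0.60 and 0.46 for Embryo proper, Venous and YS cells (edgeR adjusted p = 0.978 for each).

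**Figure D2:**
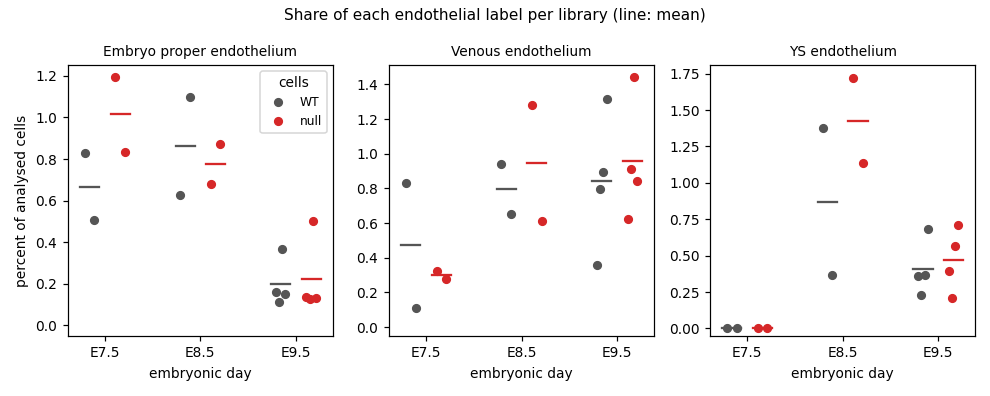
Percent of analysed cells with each endothelial label in every library, by stage, with WT libraries in grey, null libraries in red and lines at the means. Grey and red points overlap within each label at E8.5 and E9.5. The mean share of the labels summed, which is not drawn, was 2.53% of WT cells at E8.5 and 1.45% at E9.5. The Venous share was 0.799% and 0.840% of WT cells, and no test of shares was made between stages.

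Stat3, on chromosome 11 (100885098 to 100939540 in GRCm38, minus strand), was lower in null endothelium, although the deletion removes internal coding exons while the 3′ tags lie downstream, so the level does not by itself show the deletion. In Venous endothelium at E9.5 Stat3 was at 4.81, 4.40, 6.79 and 4.25 CPM in null libraries and at 12.5, 20.1, 20.4 and 16.6 CPM in WT libraries. At E8.5 the null libraries had 1.49 and 0 CPM and the WT libraries 33.7 and 26.2 CPM. No null library reached the lowest WT library at either stage, a separation shown by 10.6% of all genes at E9.5, over the 3 libraries per genotype that were tested, and by 33.9% at E8.5, over 2 per genotype. Over the libraries of more than 15 cells at both stages the mean difference was -21.1 CPM (exact permutation test within stages, two-sided, p = 0.0167, the smallest that 60 arrangements can give). Without E8.5 WT A or WT B the exact permutation p was 0.05, and without E8.5 null A it was 0.1, with differences of -22.9 to -13.7 CPM. Each of these p-values was the smallest then possible. The difference without E9.5 WT C and WT D was -21.6 CPM (exact permutation p = 0.0833, the smallest then possible).

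In YS endothelium at E9.5 Stat3 was at 13.4, 4.76, 2.91 and 16.4 CPM in null and 47.2, 29.5, 17.2 and 28.4 CPM in WT libraries, again without overlap (2.72% of all genes tested). With libraries of more than 4 cells the difference was -11.3 CPM in Embryo proper cells (exact permutation p = 0.00556), -22.6 CPM in Venous endothelium (p = 0.00238) and -20.2 CPM in YS endothelium (p = 0.00476), each p the smallest its design allows. Leaving out E9.5 WT C and WT D, these differences were -14.7, -22.2 and -24.1 CPM (exact permutation p = 0.0185, 0.00556 and 0.0111). With smaller libraries included, the genotypes overlapped in Embryo proper cells at E9.5. Null C was at 9.80 CPM and null D (2 cells) at 9.31 CPM, above WT B (3 cells) at 9.10 CPM. In the gene-wide edgeR fit with the 3 labels summed, Stat3 was at 6.32 ± 1.64 CPM in null and 22.0 ± 4.08 CPM in WT libraries at E9.5 (log2 fold change -1.74, SE 0.27, adjusted p = 0.00104). Stat3 was not called by edgeR with the labels summed at E8.5 (adjusted p = 0.286) or in Venous endothelium alone at E9.5 (adjusted p = 0.0721), and it lay below the count filter in the tests of null against WT in YS and Embryo proper cells.

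Few genes separated null from WT Venous endothelium at E9.5. The test covered 7145 genes and called 6 of them (0.084%), with 4 higher and 2 lower in null cells. The count was 11 when E9.5 WT B was left out. Grb10, which encodes an adaptor protein that restrains insulin and growth factor signalling and is expressed mainly from the maternal allele, was at 21.7, 22.0, 17.0 and 7.09 CPM in the null libraries and at 247, 257, 183 and 200 CPM in the WT libraries. All null values lay far below all WT values, a separation that 10.6% of all genes showed in the tested libraries, and in the 3 libraries per genotype that were tested the log2 fold change was -3.39 (SE 0.18, edgeR adjusted p = 1.65e-14). Cwc22, which encodes a splicing factor, was at 136, 131, 158 and 136 CPM in null and 37.4, 35.9, 37.0 and 44.4 CPM in WT libraries. Its log2 fold change was 1.84 (SE 0.17, edgeR adjusted p = 1.31e-08). The copy number of the Cwc22 locus varies between mouse strains, and reads from copies cannot be told apart. The part of copy number in this difference was not tested. The Grb10 and Cwc22 differences were not particular to endothelium. Over all analysed cells of the E9.5 libraries, Grb10 was at 9.82 to 22.4 CPM in null and 352 to 373 CPM in WT. Cwc22 was at 154 to 174 CPM in null and 36.7 to 38.5 CPM in WT over all cells.

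The other 4 calls were smaller or less stable. The histone gene Hist1h3c was at 62.8 ± 4.38 CPM in null and 13.5 ± 8.59 CPM in WT libraries (n = 3 each; log2 fold change 2.43, edgeR adjusted p = 0.000322). Dqx1, which encodes a predicted RNA helicase, was at 41.0 ± 16.8 and 7.6 ± 3.01 CPM (log2 fold change 2.41, edgeR adjusted p = 0.000684). With libraries of more than 4 cells neither gene was called. Arhgdib, a gene active in blood and endothelial cells, was at 61.5 ± 17.5 CPM in null and 29.4 ± 2.19 CPM in WT libraries (log2 fold change 1.04, edgeR adjusted p = 0.0355). Ptgis, which encodes prostacyclin synthase, was at 12, 11, 7.64 and 12.8 CPM in null and 17.4, 28.7, 29.4 and 27.9 CPM in WT libraries, and the log2 fold change of -1.50 passed the test (SE 0.31, edgeR adjusted p = 0.0271). The Arhgdib call was lost without WT B, WT C, WT D, null A or null C, and the Ptgis call without WT C, WT D, null A, null B or null C. Grb10, Cwc22, Dqx1 and Hist1h3c were called in all 6 fits that left out 1 library. Without both WT C and WT D only WT B remained on the WT side, and a fit that took its spread from all libraries called 4 genes. Grb10 (log2 fold change -3.64) and Cwc22 (2.02) were among them, and Hist1h3c, Dqx1, Arhgdib and Ptgis did not pass with this single WT library.

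No gene of the endothelial lists passed between genotypes in Venous endothelium at E9.5. Of 224 endothelial and signalling genes on the lists, 129 were tested and 0 passed an adjusted p of 0.05, a threshold that 0.168% of all genes passed. Over all genes 394 had an unadjusted p under 0.05. The 29 tested members of the endothelial identity list (of 30) had a median log2 fold change of 0.05, against 0.00 over all genes. Cdh5 was at 272 ± 28.3 CPM in null and 292 ± 31.7 CPM in WT libraries (n = 3 each), so the log2 fold change was -0.10 (SE 0.11), and Kdr had a log2 fold change of 0.05 (SE 0.11). The medians were -0.08 for 7 arterial genes, 0.06 for 8 venous genes, -0.04 for 5 Notch pathway genes, 0.18 for 9 VEGF pathway genes and 0.27 for 9 tip-cell genes, with 0 members passing in each list. The 12 tested STAT target genes (of 22) had a median of 0.01, and the 3 tested JAK-STAT components (of 11) a median of -0.12, also with 0 passing. The 42 S phase genes (median -0.01) and the 52 G2/M genes (median 0.16) included 0 that passed.

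Grb10 and Cwc22, which also differed over all analysed cells, were the 2 genes called in YS endothelium at E9.5, 0.0469% of 4264 tested. Grb10 was at 5.35, 14.3, 0 and 3.28 CPM in null and 287, 317, 194 and 216 CPM in WT libraries (log2 fold change -5.53, SE 0.38, edgeR adjusted p = 5.01e-11). Cwc22 was at 123, 100, 148 and 138 CPM in null and 27.5, 29.5, 12.9 and 26.6 CPM in WT libraries (log2 fold change 2.41, SE 0.28, edgeR adjusted p = 4.69e-06). Both were called in all 8 fits that left out 1 library, and without both WT C and WT D. By comparison, 2.72% of all genes had no overlap between the 4 null and 4 WT libraries. Of 97 endothelial and signalling genes tested, 0 passed an adjusted p of 0.05, beside 0.0938% of all genes, and the median was 0.06 for 25 endothelial identity genes and -0.54 for 6 genes of the yolk sac endothelial list. A Lyve1 UMI was found in 11.8% to 72.7% of YS cells in null and 42.9% to 51.9% in WT libraries. The part of this cell mix in the yolk sac median was not tested. The null and WT fractions also differed in blood RNA. The 12 erythroid genes summed to 276 to 1092 CPM in WT YS endothelium and 4.76 to 56.2 CPM in null YS endothelium at E9.5, and to 252.5 to 956 CPM against 9.90 to 62.6 CPM in Venous endothelium. Between 1 and 5 of these genes had no UMI in a group, and their part in the other results was not tested.

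At E8.5, 0 of 5837 genes were called between null and WT YS endothelium (edgeR), with 131 at an unadjusted p under 0.05. In Venous endothelium Stat3 was the only call (0.0171% of 5862), and its log2 fold change was -4.35 (SE 0.87, edgeR adjusted p = 0.00737), and no gene was called without WT A or by DESeq2, while without null A the Stat3 call was lost. In the cells labelled Embryo proper endothelium Actc1, which encodes cardiac actin, was the only call (0.0157% of 6356). Actc1 was at 3.69 and 0 CPM in null and 39.1 and 37.7 CPM in WT libraries (log2 fold change -3.67, edgeR adjusted p = 0.0254), and the call was lost whichever of the 4 libraries was left out. The 8 cardiomyocyte genes summed to 111 to 357 CPM in these WT libraries and 24.6 to 54.3 CPM in the null libraries, and their part in the Actc1 difference was not tested. Of the endothelial and signalling genes at E8.5, 0 of 108 tested passed an adjusted p of 0.05 in Embryo proper cells (0.0315% of all genes passed), 1 of 112 in Venous endothelium, which was Stat3 (0.0341%), and 0 of 129 in YS endothelium. With 2 libraries per genotype, 30.9% of all genes in YS endothelium had no overlap between genotypes.

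The E8.5 null libraries differed from each other at 2 imprinted genes, in opposite directions. Grb10 was at 0, 5.96 and 23.0 CPM in Embryo proper, Venous and YS cells of E8.5 null A, and at 217, 189 and 151 CPM in those of E8.5 null B. The Grb10 level over all analysed cells was 12.6 CPM in null A and 262 CPM in null B. H19 over all analysed cells was at 246 CPM in null A and 22.6 CPM in null B, against 461 to 541 CPM in the E8.5 WT libraries. Stat3 over all cells was low in both null libraries (2.53 and 1.54 CPM, against 7.61 to 7.73 CPM in WT). A tdTomato UMI was found in 72.3% of all analysed cells of null B and in 89.8% to 98.3% of those of the other null libraries. Among the endothelial cells of both E8.5 null libraries, 165 of 171 (96.5%) held one. Null B was thus at the WT level for Grb10, and null A was the nearer to WT for H19, while Stat3 was low in both.

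In the cells labelled Embryo proper endothelium at E9.5, 8 of 4058 genes (0.197%) were called between 2 null and 3 WT libraries of 5 to 8 cells each. Grb10 was at 9.10 ± 4.56 CPM in null and 308 ± 99.1 CPM in WT libraries (log2 fold change -5.17, edgeR adjusted p = 7.13e-08). The maternally expressed H19, a non-coding RNA, was at 27.7 ± 21.8 and 684 ± 228 CPM (log2 fold change -4.39, edgeR adjusted p = 0.00321). The paternally expressed genes Igf2 (log2 fold change 1.05) and Slc38a4 (2.07), an insulin-like growth factor and an amino acid transporter, were higher in null cells, as was Cwc22 (2.71). Sox17, a transcription factor of endothelium and endoderm, was at 4.11 and 13.7 CPM in null A and null C and at 61.0, 114 and 53.0 CPM in WT A, WT C and WT D. Its log2 fold change was -2.88 (SE 0.52, edgeR adjusted p = 0.00909). In the libraries too small for the test, Sox17 was at 0 CPM in null B, 130 CPM in null D, which had 2 cells, and 109 CPM in WT B, so that 1 null library lay above every WT library.

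None of these 8 calls held in all 5 fits that left out 1 library. The Sox17 call was lost without WT C, and the Cwc22 call without WT A. Without both WT C and WT D only WT A, with 5 cells, remained, and a fit that took its spread from all libraries called 1 gene, which was none of these 8. The extracellular matrix gene Vcan (log2 fold change 1.78) was called in 2 of the 5 fits, and the autophagy gene Gabarapl1 (-1.78) in 1. Sox17 had log2 fold changes of -0.10 in Venous and 0.01 in YS endothelium at E9.5, in tests that shared some but not all of these libraries. The 9 endoderm and epithelium genes summed to 157 to 366 CPM in the null and 40.7 to 140 CPM in the WT libraries of these Embryo proper cells, and their part in the 8 differences was not tested.

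With the 3 labels summed, 5 of 8160 genes (0.0613%) were called at E9.5 and all 5 were called in each of 8 fits that left out 1 library. They were Grb10 (log2 fold change -4.20), Cwc22 (2.03), Stat3 (-1.74), Ptgis (-1.19, SE 0.19, edgeR adjusted p = 0.00194) and the unnamed transcript AC132623.2 (-3.24). The number of calls was 10 without WT A, 8 without WT C or without WT D, and 12 without null D. It was also 10 without both WT C and WT D, when the AC132623.2 call was lost. Igf2 passed with a smaller change, at 894 ± 72.7 CPM in null and 497 ± 44.9 CPM in WT libraries (n = 4 each; log2 fold change 0.87, edgeR adjusted p = 1.95e-07). H19 did not overlap between genotypes in the Venous libraries, at 30.1, 175, 71.3 and 384 CPM in null and 1185.5, 970, 936 and 1335 CPM in WT cells, but its fold change did not pass (-3.18 with the labels summed, edgeR adjusted p = 0.311). With the labels summed, 3.55% of all genes had no overlap between the 4 null and 4 WT libraries, and in Venous endothelium the share was 10.6% over the 3 libraries per genotype tested. Over all analysed cells of the E9.5 libraries, H19 was at 14.3 to 113 CPM in null and 476 to 733 CPM in WT. Igf2 was at 347 to 407 CPM in null and 182 to 245 CPM in WT, so these shifts were not particular to endothelium. At E8.5, 0 of 8664 genes were called with the labels summed (325 at an unadjusted p under 0.05 by edgeR, and 1 called by DESeq2). The count was 4 without E8.5 WT A, 5 without E8.5 null A and 1 without E8.5 null B.

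**Figure D3:**
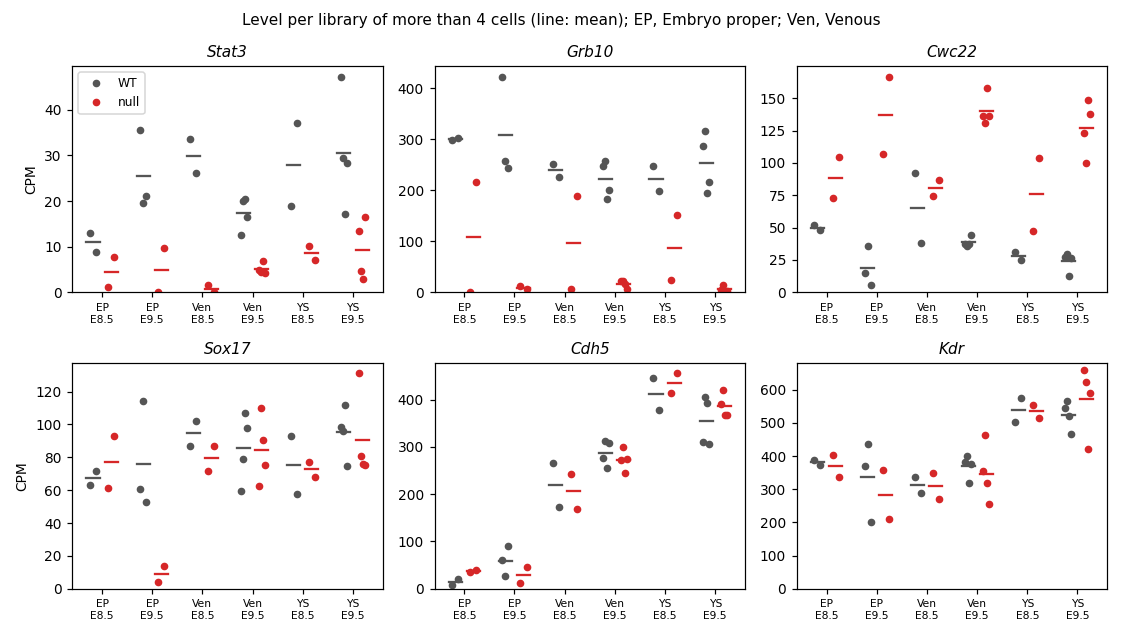
CPM of Stat3, Grb10, Cwc22, Sox17, Cdh5 and Kdr in each library with more than 4 cells of a label at E8.5 and E9.5; WT libraries are grey and null libraries red. Grb10 is near 0 in the E9.5 null libraries and at 151 to 217 CPM in E8.5 null B, while the Cdh5 and Kdr points of the genotypes overlap in Venous endothelium.

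More genes were called between stages than between genotypes with all libraries in the fits. Between E8.5 and E9.5, 76 of 6931 genes (1.1%) were called in Venous WT cells, 39 higher and 37 lower at E9.5. In Venous null cells 103 of 7465 (1.38%) were called, in YS WT cells 75 of 4411 (1.7%) and in YS null cells 58 of 5076 (1.14%). In the cells labelled Embryo proper endothelium 36 of 4625 (0.778%) were called in WT and 20 of 4971 (0.402%) in null libraries. The E8.5 and E9.5 libraries came from different embryos, so stage and embryo cannot be told apart. Preparation batches are not given, and their part in these differences was not tested. The counts moved with single libraries, to 6 in YS WT cells without E8.5 WT A, 17 in YS null cells without E9.5 null A and 7 in Embryo proper null cells without E8.5 null B. Counts between genotypes at E9.5 reached 21 in YS endothelium without null D and 17 in Embryo proper cells without null A or null C, so in these labels the order of the counts was not stable.

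Emcn rose in Venous and YS endothelium of both genotypes. In Venous endothelium Emcn was at 143 and 150 CPM in the E8.5 WT libraries and at 525.5, 582, 393 and 405 CPM in the E9.5 WT libraries. Every E9.5 library lay above both E8.5 libraries, where 30.7% of all genes tested in these cells had no overlap between stages, and the log2 fold change was 1.56 (SE 0.16, edgeR adjusted p = 3.43e-07). In Venous null cells Emcn went from 156 and 223 CPM to 484, 461, 502 and 316 CPM (log2 fold change 1.23, SE 0.19, edgeR adjusted p = 0.000127). In YS endothelium it went from 75.4 and 41.2 CPM to 550, 744, 543 and 289 CPM in WT libraries (log2 fold change 2.97, SE 0.46, edgeR adjusted p = 0.0158). In YS null libraries it went from 138 and 93.2 CPM to 677, 696, 535 and 564 CPM (log2 fold change 2.31, SE 0.21, edgeR adjusted p = 1.41e-05). Without E8.5 null A the call was lost in Venous and in YS null cells, and it held without each of the WT libraries. The YS label did not hold the same mix of cells at both stages, with a Lyve1 UMI in 124 of 128 cells at E8.5 and 40 of 93 at E9.5, and Emcn at E9.5 was at 648 CPM in the cells without Lyve1.

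Nr2f2, which specifies venous identity, was higher at E9.5 than at E8.5 in the summed cells of the YS label, when fewer cells had Lyve1. It was at 17.5 and 20.6 CPM in E8.5 WT and 138, 111, 116 and 85.2 CPM in E9.5 WT libraries (log2 fold change 2.54, SE 0.35, edgeR adjusted p = 0.000112). In the null libraries it was at 31.8 and 10.8 CPM at E8.5 and 131, 119, 154 and 68.8 CPM at E9.5 (log2 fold change 2.14, SE 0.37, edgeR adjusted p = 0.00577). All E9.5 libraries lay above all E8.5 libraries in both genotypes. In YS endothelium 22.1% of all genes in WT and 19% in null cells had no overlap between stages. The call was lost without E8.5 WT A in WT cells and without E9.5 null A in null cells. In Venous WT endothelium, where Nr2f2 was already at 96.9 CPM at E8.5 over both genotypes, the log2 fold change was 0.22 (adjusted p = 0.733, edgeR). Aplnr, the apelin receptor of venous endothelium, also rose in the summed cells of the YS label, from 79.4 and 61.8 to 295, 177, 168 and 192 CPM in WT (log2 fold change 1.50, edgeR adjusted p = 0.00061) and with a log2 fold change of 1.21 in null libraries (edgeR adjusted p = 0.0107). Neither Aplnr call held in every fit that left out 1 library. Within the YS label at E9.5 Nr2f2 was at 49.7 CPM in cells with and 148 CPM in cells without Lyve1, and at 24.7 CPM in cells with Lyve1 at E8.5. In the venous gene list, 2 of 9 tested members rose in YS WT and 2 of 9 in YS null cells, with medians of 0.26 and 0.42, beside 1.02% and 0.729% of all genes that rose.

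The 250 bases before the RefSeq start of Emcn, Nr2f2 and Grb10 are printed for the genes that carried the stage and genotype differences, in GRCm38.p6, with capitals marking GGAAG or its reverse complement CTTCC, the core letters bound by ETS factors such as ETV2.
Emcn, chr3:137340828-137341077, plus strand: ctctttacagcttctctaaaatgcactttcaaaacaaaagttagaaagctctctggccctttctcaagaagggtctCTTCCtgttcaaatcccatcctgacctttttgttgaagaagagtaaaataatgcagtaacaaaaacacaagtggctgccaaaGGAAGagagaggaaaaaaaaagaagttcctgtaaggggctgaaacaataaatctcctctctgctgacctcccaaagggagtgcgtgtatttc
Nr2f2, chr7:70366747-70366996, minus strand: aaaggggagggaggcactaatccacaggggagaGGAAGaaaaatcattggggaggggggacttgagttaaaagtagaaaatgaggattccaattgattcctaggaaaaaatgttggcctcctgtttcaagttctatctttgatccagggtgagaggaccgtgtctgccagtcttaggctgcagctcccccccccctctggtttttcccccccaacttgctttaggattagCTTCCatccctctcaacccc
Grb10, chr11:12037421-12037670, minus strand: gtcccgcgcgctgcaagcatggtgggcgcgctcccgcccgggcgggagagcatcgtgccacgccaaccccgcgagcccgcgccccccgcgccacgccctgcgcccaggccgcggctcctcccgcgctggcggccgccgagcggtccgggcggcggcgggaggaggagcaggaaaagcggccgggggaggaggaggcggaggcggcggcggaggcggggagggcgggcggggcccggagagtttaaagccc
GGAAG occurred 2 times in the Emcn window, 2 times in the Nr2f2 window and 0 times in the Grb10 window, counting both strands. Of all 27025 promoter windows of this length, 63.6% held it. Of the genes called between stages in WT cells that had a window, 30 of 55 in Venous and 32 of 55 in YS endothelium held it. The letters TTCNNNGAA, the core of a STAT site, occurred in none of the 3 windows and in 7.18% of all windows.

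Fn1, Ifitm1, Slc2a3, Kit and Sox7 fell in Venous WT endothelium. Fibronectin, Fn1, was at 471 and 461 CPM in E8.5 and 162, 125, 102 and 142 CPM in E9.5 Venous WT libraries (log2 fold change -1.99, SE 0.14, edgeR adjusted p = 1.43e-11). In Venous null libraries it was at 475 and 339 CPM at E8.5 and 172, 136, 117 and 102 CPM at E9.5 (log2 fold change -1.81, SE 0.15, edgeR adjusted p = 3.23e-11). All E9.5 values lay below all E8.5 values (26.4% of all genes had no overlap in null cells), and the call held in every fit that left out 1 library. The interferon-induced membrane gene Ifitm1 fell by 2.57 on the log2 scale in Venous WT cells (88.3 and 92.7 CPM at E8.5, 4.98, 10.0, 15.3 and 19.6 CPM at E9.5; edgeR adjusted p = 1.68e-07), and the glucose transporter gene Slc2a3 fell by 2.42. Without E9.5 WT C and WT D and with the minimum lowered to more than 4 cells, so that WT A and WT B stood for E9.5, 71 genes were called in Venous WT cells, and Emcn, Fn1, Ifitm1, Slc2a3, Cd34 and Gimap6 passed. The receptor gene Kit fell by 1.31 and Sox7, an endothelial transcription factor gene, fell by 1.42 (edgeR adjusted p = 0.00144 and 0.0105), and in the fit without WT C and WT D Kit did not pass.

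Cd34 rose with Emcn in Venous endothelium, from 212 and 166 CPM to 394, 400, 411 and 435 CPM in WT libraries (log2 fold change 1.04, SE 0.14, edgeR adjusted p = 1.36e-05). In Venous null libraries it went from 231 and 126 CPM to 385, 540, 355 and 446 CPM (log2 fold change 0.99, SE 0.18, edgeR adjusted p = 0.00157). The GTPase gene Gimap6 was at 28.0 and 26.2 CPM at E8.5 and 179, 176, 193 and 157 CPM at E9.5 in WT cells (log2 fold change 2.59, SE 0.23, edgeR adjusted p = 6.33e-09). The vessel basement membrane collagen Col15a1 rose from 1.40 and 7.13 CPM to 34.9, 37.3, 34.5 and 33.9 CPM (log2 fold change 3.17, edgeR adjusted p = 0.000405), a call lost without E8.5 WT A. The flow-induced factor Klf2 was at 52.1 and 33.9 CPM in E8.5 and 194, 126, 154 and 101 CPM in E9.5 Venous null libraries (log2 fold change 1.46, SE 0.24, edgeR adjusted p = 0.000187). In WT cells its log2 fold change was 0.73 (edgeR adjusted p = 0.075), and the difference between genotypes did not pass the interaction test.

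The pan-endothelial markers passed no stage test. Cdh5, Kdr and Pecam1 passed in none of the 6 stage tests, and over both genotypes Venous endothelium had 233 CPM of Cdh5 at E8.5 and 280 CPM at E9.5. Of the 29 endothelial identity genes tested in Venous WT cells, 4 rose and 2 fell with a median log2 fold change of 0.05, beside 1.83% of all genes past an adjusted p of 0.05 (0.822% higher and 1.01% lower). In Venous null cells 4 rose and 2 fell of 29 tested (1.21% of all genes rose and 1.9% fell, 3.11% together), and in YS WT cells 2 rose and 0 fell of 25 (1.02% of all genes rose and 1.45% fell, 2.47% together). Of all 224 endothelial and signalling genes, 6 rose and 4 fell of 128 tested in Venous WT cells, 10 rose and 7 fell of 135 in Venous null, 8 rose and 2 fell of 108 in YS WT, and 5 rose and 3 fell of 120 in YS null cells, where 0.729% of all genes rose and 0.571% fell (1.3% together). The list counts depended on single libraries. Of the list genes that rose in Venous WT cells, Plvap (log2 fold change 0.459) and Cldn5 (0.549) did not pass without E9.5 WT C and WT D. Among 6 tested Notch genes in Venous null cells the target Hey1 fell by 2.24 (log2; edgeR adjusted p = 0.00249). In Venous WT cells its log2 fold change was -1.83 and did not pass (edgeR adjusted p = 0.480), nor did the difference between genotypes.

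Fits that left out 1 of the 2 E8.5 libraries had a single library for that stage, and took its spread from the other libraries. Of 27 genes named for Venous WT cells, 8 had the same call in every fit that left out 1 library, among them Emcn, Fn1, Cd34, Gimap6 and Ifitm1. This held for 8 of 35 genes in Venous null cells, 1 of 27 in YS WT cells (Emcn) and 1 of 22 in YS null cells (Tcf7l1). The WT and null stage tests share no library. Each pool or embryo gave both fractions, however, so these tests share embryos and preparation and are not independent. Of the calls in Venous endothelium, 34 genes were shared, 44.7% of the WT and 33.0% of the null calls, all 34 in the same direction. In YS endothelium 22 genes were shared, 29.3% of the WT and 37.9% of the null calls, again all in the same direction. Emcn, Slco3a1 and Sox11 were among the genes called in Venous and YS endothelium of both genotypes. Sox11 was at 93.9 and 59.4 CPM in E8.5 and 247, 194, 171 and 181 CPM in E9.5 Venous WT libraries, and at 37.7 and 61.8 CPM and then 196, 118, 220 and 154 CPM in YS WT libraries.

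**Figure D4:**
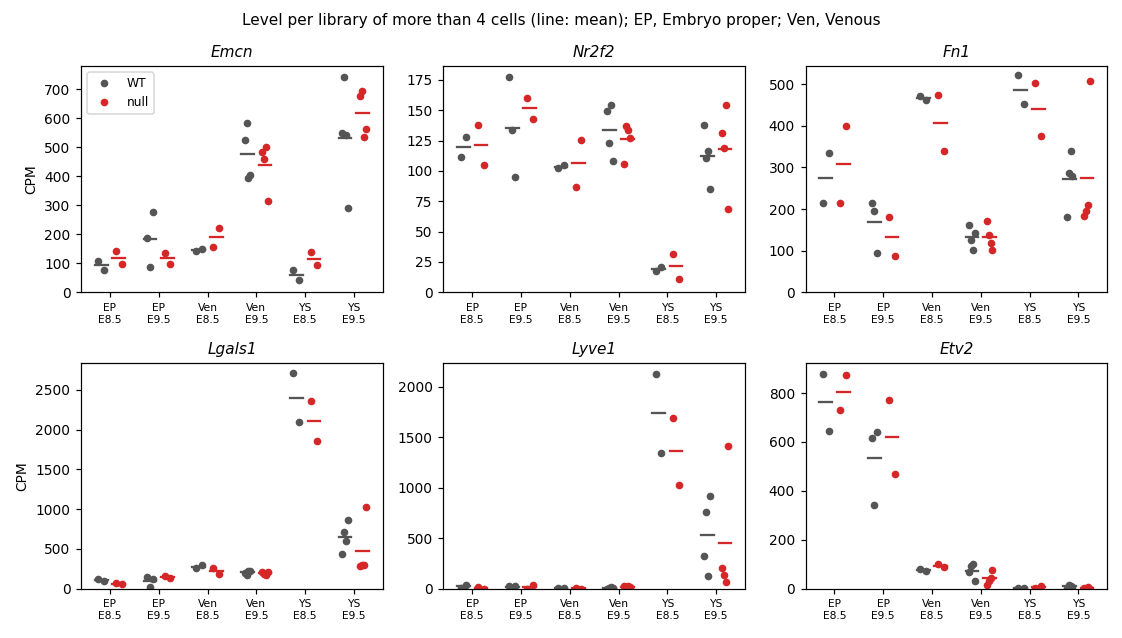
CPM of Emcn, Nr2f2, Fn1, Lgals1, Lyve1 and Etv2 in each library with more than 4 cells of a label at E8.5 and E9.5; WT libraries are grey and null libraries red. Emcn is higher at E9.5 in every Venous and YS library, Fn1 is lower in every Venous library, and Lyve1 in YS endothelium is spread from 64.0 to 1416 CPM among E9.5 libraries.

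Lgals1 and Hoxb5 were lower and Cdh2 higher in the summed YS WT cells of E9.5 than in those of E8.5, when fewer cells had Lyve1. Lgals1, which encodes galectin-1, was at 2705 and 2096 CPM in E8.5 WT and 440, 715, 595 and 866 CPM in E9.5 WT libraries (log2 fold change -1.87, SE 0.20, edgeR adjusted p = 0.000112). Hoxb5, a homeobox gene, went from 139 and 111 CPM to 31.4, 36.8, 17.2 and 35.5 CPM (log2 fold change -2.05, SE 0.30, edgeR adjusted p = 0.000128). Every E9.5 WT library lay below both E8.5 WT libraries for both genes, among the 22.1% of all genes without overlap. Without E9.5 WT C and WT D, 23 genes were called in YS WT cells, with Lgals1, Hoxb5, Emcn, Nr2f2 and Aplnr still past the threshold. Of these, only Emcn kept its call in every fit that left out 1 library. In those fits the log2 fold change was -2.07 to -1.67 for Lgals1 and -2.22 to -1.85 for Hoxb5. N-cadherin, Cdh2, rose from 4.04 and 4.12 CPM to 51.1, 59.0, 134 and 37.3 CPM in WT cells (log2 fold change 3.90, edgeR adjusted p = 0.0025) and by 3.87 in null cells (log2; edgeR adjusted p = 0.000492). The Cdh2 call in WT cells was lost without E9.5 WT C and WT D. In null libraries Lgals1 was at 2362 and 1853 CPM at E8.5 and 284, 295, 297 and 1033 CPM at E9.5, and did not pass (log2 fold change -2.18, edgeR adjusted p = 0.336).

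Lyve1, high in the YS label, did not pass between stages. It was at 2130 and 1342 CPM in E8.5 WT and 322, 759, 129 and 915 CPM in E9.5 WT libraries (log2 fold change -1.70, SE 0.74, edgeR adjusted p = 0.401). In null libraries it was at 1689 and 1029 CPM at E8.5 and 209, 133, 64.0 and 1416 CPM at E9.5 (edgeR adjusted p = 0.719). All E9.5 WT libraries lay below both E8.5 WT libraries, where 22.1% of all genes tested had no overlap between stages. The 3 lowest E9.5 null libraries lay below the E8.5 range, and E9.5 null D lay within it. The yolk sac list had a median log2 fold change of -1.18 in WT and -1.57 in null cells, with 0 of 7 tested members passing in either. Of all genes, 2.47% passed an adjusted p of 0.05 in WT and 1.3% in null cells.

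Single YS endothelial cells with and without Lyve1 were found together in every E9.5 library. At E8.5 a Lyve1 UMI was present in 124 of 128 YS endothelial cells, and at E9.5 in 40 of 93 cells. The share of E9.5 cells with a Lyve1 UMI was 45.5%, 50.0%, 42.9% and 51.9% in the WT libraries and 11.8%, 20%, 44.4% and 72.7% in the null libraries, which held 5 to 17 cells each. Of the cells with Lyve1, 2 of 5 in WT A, 1 of 3 in WT B and 2 of 3 in WT C had a single Lyve1 UMI, and in the other E9.5 libraries none had. For background, a Lyve1 UMI was found in 3 of 321 spinal cord progenitors at E8.5 (0.935%) and in 0 of 173 at E9.5 (95% Wilson upper bound 2.17%), with median depths of 24930 and 37517 UMIs against 20488 and 24251 UMIs in YS endothelium. After thinning to 10000 UMIs the YS shares were 94.5% and 38.7%. A split of E9.5 cells by Lyve1 was made after the values were seen and is a description. The 40 cells with Lyve1 had 452 CPM of Stab2, 303 CPM of Mrc1 and 565 CPM of Maf, and the 53 cells without it had 11.6, 2.58 and 18.7 CPM. Venous endothelium had 4.26, 5.06 and 21.1 CPM of Stab2, Mrc1 and Maf over all stages. Most E9.5 cells of the YS label were thus low in these genes, and the deposited name YS endothelium is used only as a label. Lgals1 was at 1096 CPM with and 303 CPM without Lyve1.

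General endothelial genes were present in cells with and without Lyve1. Cdh5 was at 374 CPM in E9.5 cells with and 352 CPM in cells without Lyve1, Kdr at 578 and 517 CPM and Pecam1 at 189 and 191 CPM. Emcn was at 322 CPM with and 648 CPM without Lyve1, Nr2f2 at 49.7 and 148 CPM, and Cd34 at 252 and 562 CPM. In the Lyve1-positive cells of E8.5 Emcn was at 98.5 CPM and Nr2f2 at 24.7 CPM. The E9.5 value of Emcn in cells with Lyve1 came largely from the 10 cells lowest in Lyve1 (25.4 to 434 CPM), in which Emcn was at 755 CPM. In the other 30 cells, with 820 CPM of Lyve1 or more, Emcn was at 113 CPM. The median label score of the atlas mapping was 0.78 in E9.5 cells with and 0.64 in cells without Lyve1, against 1.00 over YS endothelium at E8.5. Median depth was 18157 UMIs with and 27757 UMIs without Lyve1. Summed over the cells with a Lyve1 UMI, Lyve1 was at 1756 CPM at E8.5 and 1491.5 CPM at E9.5, a smaller difference than that in the share of cells with it. No test was made of these per-cell values.

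**Figure D5:**
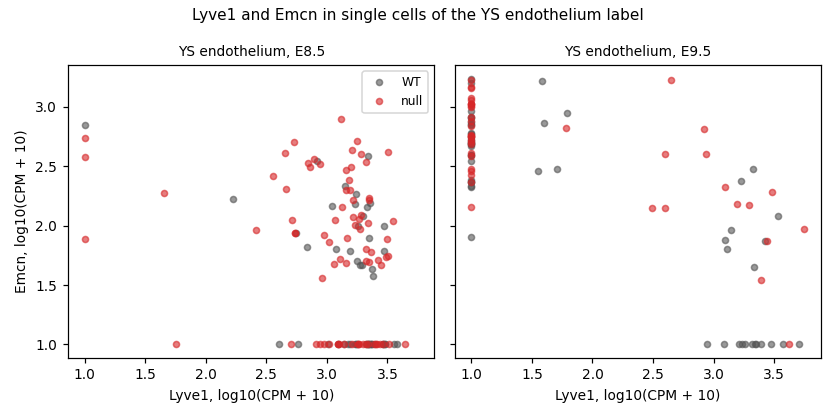
Each point is 1 cell labelled YS endothelium, with Lyve1 on the horizontal and Emcn on the vertical axis, both as log10(CPM + 10), at E8.5 and E9.5; WT cells are grey and null cells red. At E8.5, 124 of 128 cells hold a Lyve1 UMI, and at E9.5, 53 of 93 cells lie at the left edge without Lyve1.

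In the cells labelled Embryo proper endothelium, Cldn5 rose between stages from 147 and 156 CPM to 615, 596 and 519 CPM in WT libraries (log2 fold change 1.86, SE 0.17, edgeR adjusted p = 2.25e-11). Sparc, a matrix protein gene, rose by 1.40 (edgeR adjusted p = 8.92e-06), while Flt1, the VEGF decoy receptor, fell by 1.49 and Tal1 fell by 1.02 (log2; edgeR adjusted p = 0.0401 and 0.0178). Of 47 G2/M genes 6 fell and none rose in WT cells, among them Mki67 (-0.91) and Cdk1 (-0.71), with a list median of -0.39 and 0.735% of all genes lower, 0.432% higher and 1.17% in total past an adjusted p of 0.05. Etv2 was at 880 and 643 CPM at E8.5 and 615, 337, 342 and 641 CPM at E9.5 in WT libraries, so that every E9.5 value lay below both E8.5 values, the nearest pair by a margin of few CPM (24.7% of all genes had no overlap in the tested libraries). The difference did not pass (log2 fold change -0.60, edgeR adjusted p = 0.516). In null cells Epcam, an epithelial adhesion gene, rose by 5.67 (log2; edgeR adjusted p = 0.0041), a call lost in every fit that left out 1 library. Of 26 genes named for WT cells, 2 (Cotl1 and Prtg) had the same call in every such fit. Cldn5, Sparc, Flt1, Tal1 and the 6 G2/M genes that fell were not among these, so these calls and the G2/M count depended on single libraries. With 1 library left out, the log2 fold change was 1.81 to 1.91 for Cldn5 and 1.28 to 1.51 for Sparc.

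For few genes did a difference in stage change between genotypes pass the test. The interaction of stage and genotype was called for 1 of 7597 genes in Venous endothelium (0.0132%), for 1 of 5134 among the Embryo proper cells (0.0195%) and for 0 of 5393 in YS endothelium (edgeR; 107 at an unadjusted p under 0.05). The Venous gene was Cwc22, at 92.5 and 38.0 CPM in E8.5 WT and 74.5 and 87.1 CPM in E8.5 null libraries, where the genotypes overlapped, and without overlap at E9.5 (interaction log2 fold change 1.67, SE 0.32, edgeR adjusted p = 0.0378). The call held in 3 of 12 fits that left out 1 library. The median atlas stage of the nearest reference cells was 8.75 for Venous endothelium at E8.5 and 9.0 at E9.5. The mean mapped stage per library differed between null and WT by 0.0767 days in Venous endothelium with more than 15 cells per library (exact permutation test, two-sided, p = 0.317, smallest possible 0.0167). With more than 4 cells the difference was 0.0991 days (exact permutation p = 0.0643, smallest possible 0.00238). In Venous libraries of more than 15 cells, the mean G2/M gene level differed by 0.0153 and the S gene level by -0.0427 in log2 units (exact permutation p = 0.767 and 0.433). Both changed sign without E9.5 WT C and WT D, to -0.0370 and 0.0178 (exact permutation p = 0.417 and 0.75). In YS endothelium the G2/M gene level differed by -0.227 with more than 15 cells per library (exact permutation p = 0.5, the smallest possible) and by -0.356 with more than 4 cells (exact permutation p = 0.0952).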

How the data were processed

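Single cells from Stat3 null and WT fractions of chimeric mouse embryos were profiled with a 10x 3′ kit in 16 libraries. The authors aligned and counted UMIs with Cell Ranger on mm10 with the tdTomato sequence added, filtered cells, called doublets and transferred cell type labels from an atlas of mouse gastrulation and early organogenesis. The deposited matrix holds raw UMI counts of 29453 genes in 41832 cells. The deposited cell table gives, per barcode, the mitochondrial percent of counts, and a label score that is the fraction of nearest atlas cells with the transferred label. Of these cells 37841 passed the filters used here.

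UMIs were summed per library and label, and predicted genes (Gm and Rik names), mitochondrial, ribosomal, haemoglobin, Y-linked and X-inactivation genes and tdTomato were left out of the tests. Sums were tested with edgeR 4.0.16 (quasi-likelihood test, TMM, filterByExpr) in R 4.3.3, within stages for genotype, within genotypes for stage, and with an interaction term for both, with limma 3.58.1 loaded. Alternatives used DESeq2 1.42.0 or other filters, scaling and libraries. Cell counts per label were tested with edgeR for labels of at least 20 cells. Single values were tested by exact permutation within stages. Python 3.11.15, numpy 2.4.6, pandas 2.3.3 and scipy 1.17.1 did the remaining steps. The edgeR step was tested on simulated counts with 200 changed genes. CPM means are given ± SD over libraries.

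The text names Stat3, up to 10 called genes per direction whose libraries did not overlap (8 for stage), list members with an adjusted p under 0.05, and the most abundant members of each list. The cells and gene lists were chosen with earlier results of these data known. Library names in the deposited table gave stage and sort gate but could not be matched to the replicate and pool numbers of the labels. Promoter windows are RefSeq sequences of GRCm38.p6. Gene coordinates are of GRCm38. The minimum of more than 4 cells and the fits without E9.5 WT C and WT D were chosen after seeing the data. Intervals cover the spread between libraries or counting error only. Some results are not reported here.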

Additional observations from a re-analysis of the deposited data

Results flagged for a closer look

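Among 53 groups of 4 to 10 libraries searched for a library far from the others, 2 were found, no more than the about 1 in 20 that chance gives. In E9.5 null C the cells labelled Embryo proper endothelium made up 0.502% of analysed cells, above the 3 other E9.5 null libraries, which lay between 0.124% and 0.139%. In YS endothelium of E9.5 WT, Prkar2b, which encodes a regulatory subunit of protein kinase A, was at 44.2 CPM in the highest library.

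In the stage comparison 2 genes differed between genotypes by the interaction test. Rcn3, which encodes a calcium-binding protein of the endoplasmic reticulum, was at 67.0 and 55.3 CPM in E8.5 WT and 45.7, 39.1 and 37.1 CPM in E9.5 WT libraries of the cells labelled Embryo proper endothelium, and at 29.5 and 19.4 CPM and then 131 and 102 CPM in null libraries (interaction log2 fold change 2.63, SE 0.47, edgeR adjusted p = 0.0419). The Rcn3 call was lost without E8.5 WT A, E8.5 null A, E8.5 null B, E9.5 WT C or E9.5 WT D. Cwc22 differed in Venous endothelium, with an interaction log2 fold change of 1.67.

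A tdTomato UMI was found in endothelial cells of the WT sort, which were not used in the comparisons. At E9.5 this was 32 of 205 cells (15.6%), of which 26 were among the 111 endothelial cells of WT D (23.4%, against 8.47% of all cells of that library). At E8.5 it was 2 of 158 cells and at E7.5 it was 1 of 24.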

How the results depend on the processing

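No paired analysis was possible because the library names in the deposited cell table could not be matched to the replicate numbers that the labels give, although each pool gave a null and a WT fraction. Of 1692 alternatives for 182 results on single named genes, 1214 kept direction and side of the threshold, 472 no longer passed, 3 newly passed and 3 reversed. Most libraries held under 30 cells of a label, and whether this set the number of calls was not tested. Where leaving out libraries left 1 in a group, the fit over all libraries was used, in which that library is assumed to vary like the others. With more than 30 cells per library, Venous endothelium at E9.5 gave no value. The cause of the changes below was not tested.

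Genes called between null and WT were, in the report, 6 (Venous E9.5), 1 (Venous E8.5), 1 and 8 (Embryo proper E8.5 and E9.5), 0 and 2 (YS), and 0 and 5 (labels summed). Without a fold threshold they were 12 in Venous E9.5, 2 in Venous E8.5, 2 in Embryo proper E8.5, 4 in YS E9.5 and 16 with labels summed at E9.5. Without the low count filter they were 22 and 4 in Venous E9.5 and E8.5, 10 and 44 in Embryo proper E8.5 and E9.5, 4 and 11 in YS E8.5 and E9.5, and 25 and 23 with labels summed. DESeq2 called 0 and 3 in Embryo proper E8.5 and E9.5, 0 in Venous E8.5, and 1 and 9 with labels summed. With all libraries in 1 fit, 0 were called in Embryo proper E8.5 and 1 in YS E9.5. With more than 30 cells per library 12 were called with labels summed at E9.5. Without E9.5 WT C and WT D, 1 was called in Embryo proper E9.5 and 10 with labels summed.

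Leaving out 1 library gave 6 to 11 calls in Venous E9.5 (11 without WT B), 0 to 2 in Venous E8.5 (0 without WT A, 2 without null A or null B), 0 to 3 in Embryo proper E8.5 (0 without WT A, 3 without null A) and 4 to 17 in Embryo proper E9.5 (4 without WT D, 17 without null A or null C). It gave 0 to 1 in YS E8.5 (1 without null A or null B), 2 to 21 in YS E9.5 (4 without WT D or null C, 21 without null D), 0 to 5 with labels summed at E8.5 (4 without WT A, 5 without null A, 1 without null B) and 5 to 12 at E9.5 (10 without WT A, 8 without WT C or WT D, 12 without null D).

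Genes called between stages were 76 in Venous WT, 103 in Venous null, 75 in YS WT, 58 in YS null, 36 in Embryo proper WT and 20 in Embryo proper null cells. In the same order they were 122, 160, 176, 195, 87 and 112 without the low count filter. DESeq2 called 43 in Venous WT, 49 in Venous null, 41 in YS WT, 17 in Embryo proper WT and 11 in Embryo proper null cells. Without a fold threshold 127 and 232 passed in Venous WT and null cells. Without E9.5 WT C and WT D, 23 were called in YS WT cells. Leaving out 1 library gave 50 to 78 in Venous WT (50 without E8.5 WT A), 66 to 122 in Venous null (66 without E8.5 null A) and 6 to 98 in YS WT cells (6 without E8.5 WT A, 24 without E8.5 WT B, 45 without E9.5 WT A). It gave 17 to 184 in YS null (26 without E8.5 null A, 17 without E9.5 null A, 184 without E9.5 null D), 12 to 38 in Embryo proper WT (16 without E8.5 WT A, 12 without E8.5 WT B, 22 without E9.5 WT A) and 7 to 69 in Embryo proper null cells (10 without E8.5 null A, 7 without E8.5 null B, 69 without E9.5 null A, 37 without E9.5 null C).

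The interaction called 1 gene in Embryo proper, 1 in Venous and 0 in YS cells. Without the filter it called 20 in Embryo proper and 2 in Venous cells, and DESeq2 called 0 in both. Leaving out 1 library gave 0 to 14 in Embryo proper (3 without E8.5 WT A, 2 without E8.5 WT B or null A, 0 without E8.5 null B, E9.5 WT C or WT D, 5 without E9.5 WT A, 14 without E9.5 null A, 6 without E9.5 null C). It gave 0 to 3 in Venous (3 without E8.5 null A, 0 without E8.5 WT A, E9.5 WT A, WT B or WT C, or any E9.5 null library) and 0 to 2 in YS cells (2 without E8.5 null A, 1 without E9.5 null D). Stat3 reversed in the YS interaction, with log2 values of -0.64 to 0.30 when 1 library was left out.

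For shares of cells (log2 fold changes), the summed labels at E7.5 reversed to 0.28 without TMM, 0.0760 without a minimum of cells and 0.19 with all libraries in 1 fit, and Venous E9.5 to -0.00923 with tdTomato-positive WT cells kept. Leaving out 1 library gave, at E7.5, 0.57 to 1.01 for Embryo proper and 0.016 to 1.04 for summed labels. At E8.5 it gave -0.53 to 0.26 for Embryo proper, -0.45 to 0.77 for Venous, 0.081 to 1.98 for YS and -0.0059 to 0.62 for summed labels. At E9.5 it gave -0.53 to 0.48, -0.13 to 0.42, -0.16 to 0.41 and -0.13 to 0.32 in the same order, and for the difference between stages -0.27 to 0.68 (Embryo proper), -0.65 to 0.65 (Venous) and -1.83 to -0.074 (YS). None of these shares passed the edgeR test under an alternative run here.

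The Stat3 difference newly passed with more than 4 cells per library in Embryo proper (-11.3 CPM) and YS cells (-20.2 CPM). With more than 15 cells the test could not pass in these labels, as the smallest possible exact permutation p was 0.333 and 0.5. Leaving out 1 library gave -11.8 to -7.57 CPM in Embryo proper, -22.9 to -13.7 CPM in Venous and -15.0 to -8.69 CPM in YS cells. The mapped stage difference was -0.0661 days in Embryo proper and -0.0288 in YS cells with more than 4 cells, and -0.0475 in YS cells with more than 30. With 1 library left out it was 0.0801 to 0.101 in Embryo proper, 0.0333 to 0.120 in Venous and -0.0475 to 0.159 in YS cells. The G2/M difference in Venous cells was -0.0369 with more than 4 cells. With 1 library left out it was 0.0694 to 0.210, -0.0185 to 0.0940 and -0.241 to -0.212 in Embryo proper, Venous and YS cells, and the S difference was -0.131 to -0.0448, -0.0729 to -0.0106 and -0.00227 to 0.184. Without E9.5 WT C and WT D the Stat3 difference in Venous cells was -21.6 CPM, and the exact permutation test could then no longer pass. The mapped stage difference was -0.0475 days in YS cells, and in Venous cells the S difference was 0.0178 and the G2/M difference -0.0370. With more than 4 cells as well, Stat3 was -14.7 CPM in Embryo proper and -24.1 CPM in YS cells, mapped stage -0.0440 and -0.0562 days, and in Venous cells S was 0.00915 and G2/M -0.0889 (exact permutation p = 0.0333 for the last).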

Other observations

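At E7.5, which entered no test across genes here, 44 cells were labelled Embryo proper endothelium and 16 Venous endothelium over both genotypes. In the Embryo proper cells Etv2 was at 1016 CPM, against 751 CPM at E8.5 and 531 CPM at E9.5, while Cdh5 was at 6.99, 24.5 and 38.8 CPM and Emcn at 4.00, 108 and 132 CPM. In the Venous cells Kdr was at 640 CPM at E7.5, 330 CPM at E8.5 and 358 CPM at E9.5. Nr2f2 was at 8.82, 96.9 and 128 CPM and Klf2 at 5.29, 59.3 and 143 CPM in the same order. The Venous label at E7.5 was therefore given to cells with 185 CPM of Cdh5 and little Nr2f2 or Emcn (3.53 CPM).

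In YS endothelium at E9.5 H19 was at 64.3, 52.4, 11.6 and 177 CPM in null and 1882, 1695, 1435 and 1180 CPM in WT libraries. The genotypes did not overlap, as for 2.72% of all genes tested, and H19 did not pass (log2 fold change -4.32, edgeR adjusted p = 0.135). Igf2, its neighbour and expressed from the paternal allele, was at 1232, 1239, 943 and 1419 CPM in null and 809, 1164, 836 and 616 CPM in WT libraries, which overlapped.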
